A study of Mus musculus with 19 samples.

Results

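The 10 genes described here encode the microglial receptor TREM2, its adaptor TYROBP (DAP12), the related adaptor HCST (DAP10) and the signalling enzymes SYK, PLCG2 and INPP5D. They also encode CD33, ABI3 and the transcription factor PU.1 (gene Spi1), which human genetics has tied to Alzheimer's disease through microglia. The last of the 10, Ms4a6d, is a mouse gene of the MS4A family. All 10 genes were chosen by symbol, as members of the TREM2 pathway or as microglial risk genes, by a rule that uses no measured value. The choice of these genes and of the gene lists was still made with earlier results of these data known. All 10 matched 1 identifier each among the 48709 genes counted, and all 10 passed the filter on low counts. RNA was sequenced from the CA1 region of the hippocampus, microdissected from 7 months old mice, with 1 library per labelled sample (n = 19). The 6 libraries of WT control came from wild-type mice that received control oligonucleotide. Another 6 libraries, called APP control, came from APPPS1-21 mice with the same control oligonucleotide. The 7 libraries called APP anti-miR-mix came from APPPS1-21 mice given inhibitors of 3 microRNAs, whose sequences are shown further on. Oligonucleotides were packed in lipid nanoparticles and injected into the dorsal hippocampus in all 3 groups. For the wild-type mice the library titles mention both control and anti-miR-mix, and the study's account of them as carrying control oligonucleotide was followed. APPPS1-21 mice express human APP and presenilin 1 with disease mutations from a Thy1 promoter, which is active in neurons, so that no transgene is driven by a microglial promoter. The labels do not say which libraries share a litter, and p-values measure the spread between libraries of a group.

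TREM2 is a receptor at the surface of microglia, the resident macrophages of the brain, and binds lipids, lipoproteins and amyloid. It has no signalling motif of its own and passes its signal through TYROBP, whose phosphorylated tail recruits the kinase SYK. SYK in turn leads to PLCG2, a phospholipase that raises intracellular calcium, while HCST recruits phosphatidylinositol 3-kinase and INPP5D removes the phosphate that this kinase adds. In mouse models with amyloid, microglia around plaques are known for high Trem2 and Tyrobp expression.

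Total counts ranged from 19362343 to 37018917 per library. Thy1, whose regulatory sequence drives the transgenes, had 18117 to 20734 normalized counts (read counts divided by a size factor per library) in WT control and 36153 to 62866 in the 13 transgenic libraries, so no library went against its genotype label. Genes that define CA1 pyramidal cells (Wfs1, Fibcd1 and 3 others) summed to between 21697 and 35438 normalized counts, and 8 genes that define microglia at rest (among them P2ry12, Tmem119 and Cx3cr1) to between 7530 and 24503. Within APP control, libraries 5 and 6 stood apart from the other 4, and their values are given beside the results they touch. Library 5 also held 2964 normalized counts over 5 neutrophil genes, against 7.8 to 98.6 in the other 18 libraries, and 4137 over 4 endothelial genes, against 2213 to 3326. It had the highest sum of 5 red blood cell genes (2715, against 493.2 to 2136) and the lowest of 5 oligodendrocyte genes (110803, against 113814 to 235997). WT control 1 had the highest sum of 7 T and NK cell genes (239, where the remaining wild-type libraries had 44.8 to 93.6), and WT control 5 and APP anti-miR-mix 6 the highest sums of 5 choroid plexus genes (2395 and 1633, against 396 to 828 elsewhere). The part of these cells in the values of the members was not tested. Neutrophils also express Tyrobp, Spi1, Hcst, Plcg2 and Syk.

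The treated mice received the following inhibitors, shown because they define the treatment. They are printed as the study lists them, in DNA letters, with the bases that pair with the microRNA seed (bases 2 to 8 of the microRNA, counted from its 5′ end) in capitals. Each stands below the mature mouse microRNA from RefSeq, whose seed is in capitals.
miR-181a-5p: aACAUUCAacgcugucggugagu
inhibitor of miR-181a-5p: actcaccgacagcgtTGAATG
miR-146a-5p: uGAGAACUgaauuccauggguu
inhibitor of miR-146a-5p: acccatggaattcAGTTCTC
miR-148a-3p: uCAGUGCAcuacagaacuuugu
inhibitor of miR-148a-3p: caaagttctgtagTGCACT
The inhibitor of miR-146a-5p is complementary to bases 2 to 21 and covers all 7 bases of the seed. The inhibitors of miR-181a-5p (bases 3 to 23) and miR-148a-3p (bases 3 to 21) cover 6 of the 7. The microRNAs themselves were not measured in these libraries.

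Promoters were inspected because Spi1 encodes PU.1, a transcription factor that binds a GAGGAA core in many myeloid genes. Another reason was that every member except Ms4a6d passed the test of APP control against WT control, each with a positive difference. RefSeq promoters (250 bases before to 50 bases after a transcription start, on GRCm38.p6) were found for 6 members. The core was searched as GAGGAA and, for the other strand, as TTCCTC. It was present in the promoters of Trem2, Inpp5d, Cd33 and Syk (for Syk at 1 of 2 starts) and not in those of Plcg2 and Hcst. By promoter this was 4 of 7, and 28.3% of all 32851 promoters held it. The promoter of Trem2, the receptor, is shown with that of Inpp5d, the only member with 2 matches, that of Cd33, with a match far from the start, and that of Hcst, without a match. Each reads along the strand of its gene, and capitals mark the core on either strand.
Trem2 (chr17:48346151-48346450, plus strand): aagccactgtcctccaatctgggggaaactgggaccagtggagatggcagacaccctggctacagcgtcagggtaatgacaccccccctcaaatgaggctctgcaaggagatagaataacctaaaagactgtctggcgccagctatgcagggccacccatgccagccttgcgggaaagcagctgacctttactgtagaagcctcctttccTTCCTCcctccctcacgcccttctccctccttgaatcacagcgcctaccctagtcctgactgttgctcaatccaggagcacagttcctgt
Inpp5d (chr1:87620062-87620361, plus strand): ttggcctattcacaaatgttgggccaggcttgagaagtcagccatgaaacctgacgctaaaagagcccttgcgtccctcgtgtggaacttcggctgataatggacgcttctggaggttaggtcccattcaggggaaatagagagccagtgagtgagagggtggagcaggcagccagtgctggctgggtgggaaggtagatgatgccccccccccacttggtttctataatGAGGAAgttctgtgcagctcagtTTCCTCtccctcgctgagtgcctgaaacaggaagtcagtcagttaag
Cd33 (chr7:43533122-43533421, minus strand): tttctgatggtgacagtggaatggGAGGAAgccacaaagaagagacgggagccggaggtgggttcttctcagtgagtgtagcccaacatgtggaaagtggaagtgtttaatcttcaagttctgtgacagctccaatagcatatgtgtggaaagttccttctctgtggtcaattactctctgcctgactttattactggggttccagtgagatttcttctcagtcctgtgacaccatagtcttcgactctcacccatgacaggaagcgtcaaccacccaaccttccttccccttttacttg
Hcst (chr7:30419805-30420104, minus strand): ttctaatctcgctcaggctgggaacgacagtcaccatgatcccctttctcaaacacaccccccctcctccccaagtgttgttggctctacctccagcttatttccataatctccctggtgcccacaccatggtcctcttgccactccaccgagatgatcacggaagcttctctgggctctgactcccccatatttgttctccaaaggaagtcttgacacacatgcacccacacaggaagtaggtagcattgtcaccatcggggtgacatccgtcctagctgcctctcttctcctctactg
In Trem2 the match begins 40 bases before the start, on the strand opposite to the gene. In Inpp5d the matches lie 20 bases before and 3 bases after it, and in Cd33 226 bases before it. The RefSeq start of Cd33 lies inside the gene's span in the annotation used for the counts. A match of 6 letters is a description of the sequence, and PU.1 binding was not measured.

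The first comparison, APP control against WT control, addressed how these genes differed between the genotypes. Amyloid was not measured in these libraries. Higher expression in APP control was called for 9 of the 10 members (DESeq2, adjusted p under 0.05, 19297 genes tested) and none was lower, where 3.66% of all genes tested were called higher. The log2 fold changes were 2.18 for Trem2, 1.97 for Tyrobp and 1.49 for Hcst, between 0.70 and 1.01 for Abi3, Spi1, Inpp5d, Plcg2 and Cd33, and 0.44 for Syk. Ms4a6d differed by 0.44 and was not called. The median over the members was 0.99, against -0.01 over all genes tested. For 5 members (Trem2, Tyrobp, Plcg2, Inpp5d and Spi1) every APP control library exceeded every WT control library, which held for 1.2% of all genes tested. In tissue of this kind a larger number of microglia and more RNA per microglial cell cannot be told apart.

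Trem2 (ENSMUSG00000023992, GRCm38 chromosome 17, 48346401 to 48354147) had 469.6 to 1011 normalized counts in WT control, with a median of 603. Among the APP control libraries it ran from 1189 to 4876, with a median of 3528. In APP anti-miR-mix it had 2429.6 to 4513, with a median of 3021. The transgenic groups thus lay above WT control without overlap and overlapped each other widely. APP control was 4.54-fold higher than WT control (95% interval 2.97 to 6.93, adjusted p = 1.26e-09), the largest fold change among the members. Libraries 5 and 6 held 1189 and 1472 normalized counts, while the other 4 held 3498 to 4876. Without both, the log2 fold change was 2.55 in place of 2.18.

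Tyrobp (ENSMUSG00000030579, chromosome 7, 30413760 to 30417585), the adaptor that carries the TREM2 signal, had 447 to 1008 normalized counts in WT control, with a median of 584. The range was 1050.3 to 4247 in APP control (median 2989) and 2114 to 3756 in APP anti-miR-mix (median 2689). Again the wild-type libraries lay below all transgenic ones, by a narrow gap to APP control 5, at 1050.3, while APP control 6 held 1245. APP control was 3.92-fold higher (95% interval 2.57 to 5.99, adjusted p = 6.78e-08). Without both the log2 fold change was 2.33 in place of 1.97.

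**Figure D1:**
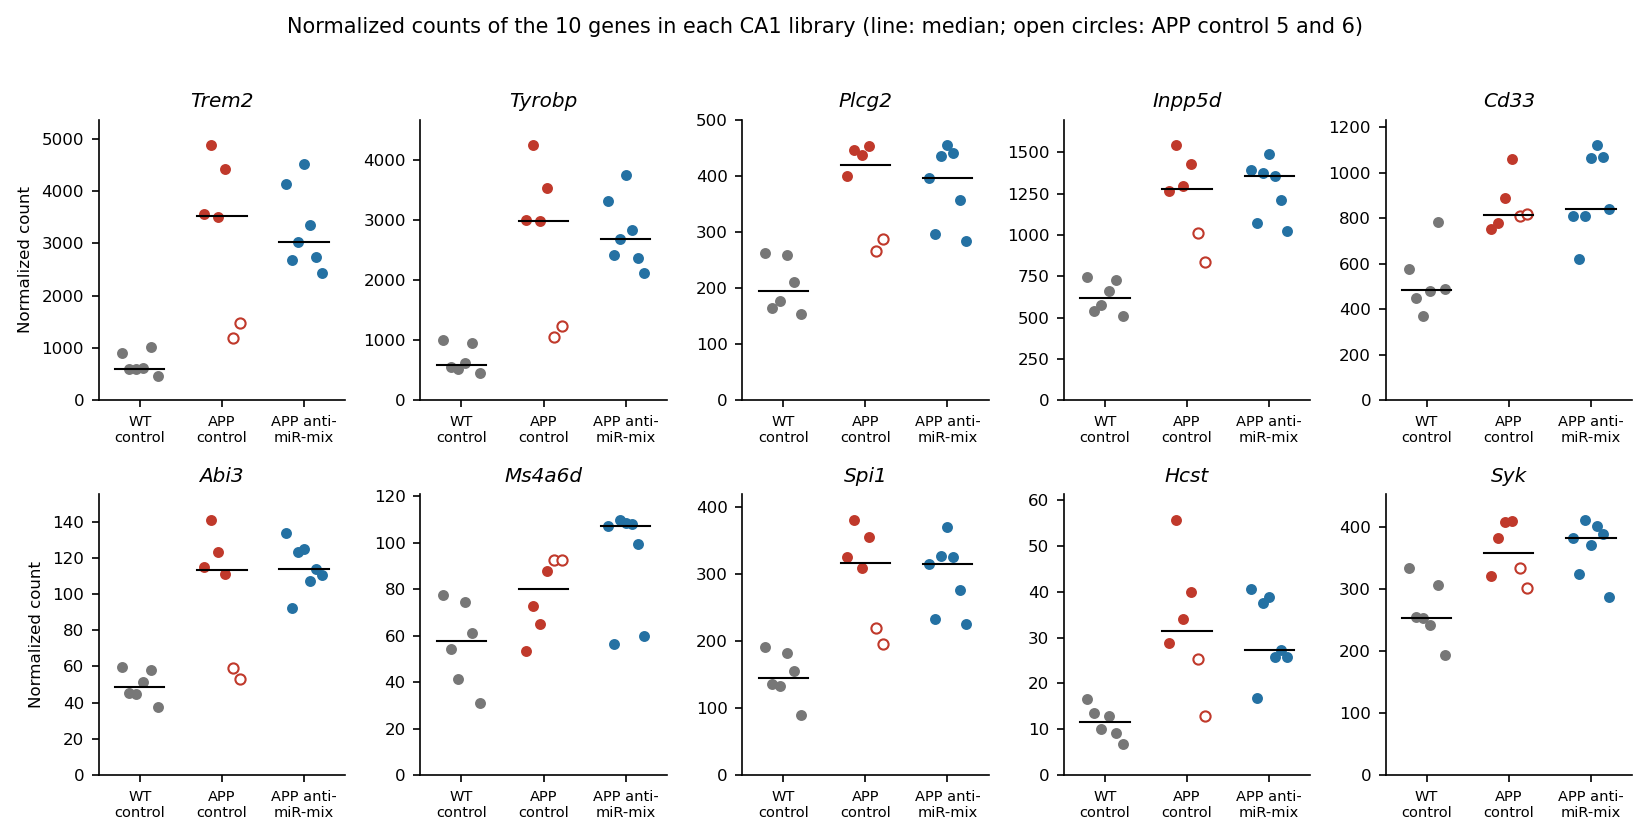
Normalized counts of the 10 genes (vertical axes, from 0) in each of 19 libraries, by group, with 1 point per library, a line at the group median and open circles for APP control 5 and 6. Trem2 lies between 469.6 and 1011 in WT control and between 1189 and 4876 in the transgenic groups, and the open circles are the 2 lowest APP control values in Trem2, Tyrobp, Plcg2, Inpp5d, Abi3, Spi1 and Hcst and the 2 highest in Ms4a6d.

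Hcst (ENSMUSG00000064109, chromosome 7, 30417712 to 30419854) encodes DAP10, an adaptor that pairs with TYROBP in some receptor complexes. It faces Tyrobp tail to tail, with 126 bases between both genes. It was scarce, at 6 to 49 reads per library. The normalized counts were 6.86 to 16.7 in WT control (median 11.5), 12.8 to 55.7 in APP control (median 31.4) and 16.8 to 40.6 in APP anti-miR-mix (median 27.3). APP control overlapped WT control through library 6 alone, at 12.8. This made a fold change of 2.82 (95% interval 1.81 to 4.37, adjusted p = 0.000255). Library 5 held 25.3, and without both the log2 fold change was 1.77 in place of 1.49. In the deposited normalized table it was 0.59 (limma, adjusted p = 0.00410).

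Syk (ENSMUSG00000021457, chromosome 13, 52583173 to 52648792), the kinase that docks on phosphorylated TYROBP, had the smallest difference that passed the test. It had 193 to 335 normalized counts in WT control (median 254), 302 to 410.4 in APP control (median 359) and 287 to 412 in APP anti-miR-mix (median 384). The groups overlapped, since WT control 1 and 5 held 335 and 307 and APP control 5 and 6 held 334 and 302. The fold change was 1.36 (95% interval 1.15 to 1.61, adjusted p = 0.0117). The call was lost with an adjustment number per library, derived here from the deposited normalized table, as a factor (DESeq2, adjusted p = 0.0585). It was also lost when WT control 6, APP control 3 or APP control 4 was left out (adjusted p = 0.0505, 0.0530 and 0.0524).

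Plcg2 (ENSMUSG00000034330, chromosome 8, 117498291 to 117635142), the phospholipase downstream of SYK, had 154 to 263 normalized counts in WT control (median 195), 266 to 453 in APP control (median 419.7) and 285 to 456 in APP anti-miR-mix (median 397). All transgenic libraries lay above all wild-type ones, with APP control 5 (266) just above the highest wild-type value and APP control 6 at 289. This was a fold change of 1.86 (95% interval 1.47 to 2.34, adjusted p = 1.57e-05), and without both libraries the log2 fold change was 1.08 in place of 0.89. Its widely expressed relative Plcg1 had 3530 ± 145 (SD, n = 6) in wild-type and 3535 ± 169 (n = 6) in APP control libraries and was not called (log2 fold change 0.00, adjusted p = 0.997).

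Inpp5d (ENSMUSG00000026288, chromosome 1, 87620312 to 87720507) encodes SHIP1, a lipid phosphatase that opposes phosphatidylinositol 3-kinase. It had 513 to 744 normalized counts in WT control (median 620.1), 838 to 1544 in APP control (median 1282) and 1024 to 1491 in APP anti-miR-mix (median 1358). The wild-type and transgenic ranges did not overlap. The fold change was 1.96 (95% interval 1.62 to 2.37, adjusted p = 1.60e-09). APP control 5 and 6 held 1012 and 838, below the other 4 (1268 to 1544), and without both the log2 fold change was 1.14 in place of 0.97. Inppl1, which encodes the related phosphatase SHIP2, differed by 0.19 on the log2 scale and was not called (adjusted p = 0.543).

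Spi1 (ENSMUSG00000002111, chromosome 2, 91082390 to 91115756), which encodes PU.1, a factor that all myeloid cells need, had 89.1 to 191 normalized counts in WT control (median 145). It had 195 to 381 in APP control (median 317) and 225 to 371 in APP anti-miR-mix (median 314). The ranges did not overlap, although APP control 6, at 195, lay close to WT control 1, at 191, and APP control 5 held 220.2. APP control was higher by a factor of 2.01 (95% interval 1.56 to 2.59, adjusted p = 6.60e-06), and without both libraries the log2 fold change was 1.21 in place of 1.01.

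Cd33 (ENSMUSG00000004609, chromosome 7, 43524216 to 43544428), a receptor for sialic acid, had 369 to 784 normalized counts in WT control (median 485), 753 to 1059.7 in APP control (median 814) and 622 to 1120.2 in APP anti-miR-mix (median 841). The groups overlapped through WT control 5, the highest wild-type library at 784. Libraries 5 and 6 of APP control, at 809.5 and 819, lay in the middle of their group here. The fold change was 1.62 (95% interval 1.30 to 2.02, adjusted p = 0.000764). Of its relatives fixed for comparison, Siglecf was higher in APP control (log2 fold change 1.42, adjusted p = 4.79e-06), Siglece was not called (0.05, adjusted p = 0.979) and Siglecg had too few counts to be tested. Among the receptor lists described further on, the sialic acid receptors Cd22 and Siglech were also higher (1.18 and 0.87, adjusted p = 0.00248 and 0.000113), and are named after their values were seen.

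Abi3 (ENSMUSG00000018381, chromosome 11, 95830074 to 95842476) encodes a component of complexes that shape the actin skeleton. It had 37.7 to 59.8 normalized counts in WT control (median 48.4), 53.1 to 141 in APP control (median 113) and 92.3 to 134 in APP anti-miR-mix (median 114). APP control 5 and 6, at 59.0 and 53.1, fell within the wild-type range, whereas the other 4 held 111 to 141. APP control exceeded WT control by a factor of 2.01 (95% interval 1.51 to 2.67, adjusted p = 0.000107), and without both libraries the log2 fold change was 1.29 in place of 1.01. Of the exonic positions of Abi3, 70.1% are shared with Zfp652, 41.1% with Phospho1 and 5.63% with Gngt2, all on the opposite strand. Zfp652 and Phospho1 were not called (log2 fold changes 0.07 and -0.09), whereas Gngt2 was higher in APP control by 1.26 (adjusted p = 4.03e-07). Whether strand was used and how reads in shared positions were counted was not stated, and their part in the Abi3 counts was not tested.

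Ms4a6d (ENSMUSG00000024679, chromosome 19, 11586604 to 11604849), a membrane protein of the MS4A family, was the exception. It had 30.8 to 77.5 normalized counts in WT control (median 57.7), 53.3 to 92.8 in APP control (median 80.3) and 56.6 to 109.9 in APP anti-miR-mix (median 107). The wild-type and APP control ranges overlapped widely. The fold change was 1.36, with a 95% interval from 1.00 to 1.85 and an adjusted p of 0.350. APP control 5 and 6 held its 2 highest values in that group, 92.8 and 92.5, the reverse of their place for Trem2. The relatives Ms4a6b and Ms4a6c differed by 0.19 and 0.59 on the log2 scale and were not called (adjusted p = 0.876 and 0.368).

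**Figure D2:**
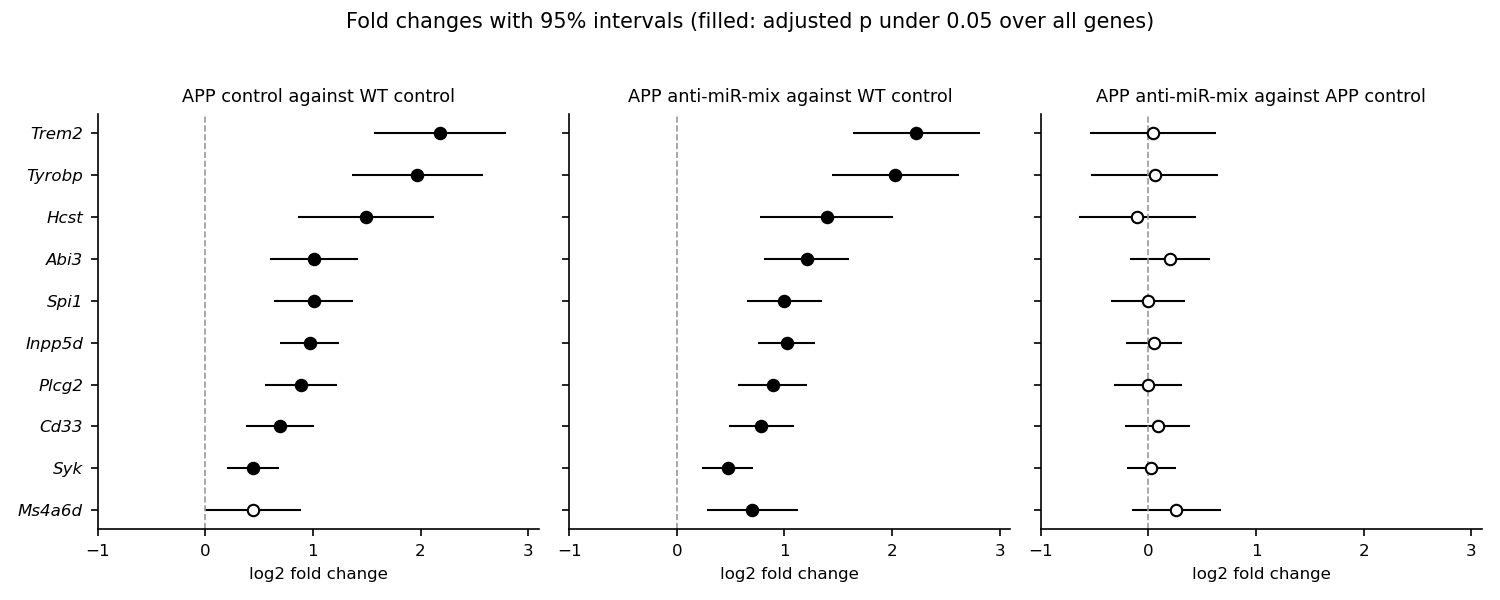
Log2 fold changes (horizontal axes) of the 10 genes in the 3 comparisons, with lines for 95% intervals and filled points where the adjusted p was under 0.05. Against WT control the points run from 0.44 to 2.18 for APP control and from 0.47 to 2.23 for APP anti-miR-mix, and between the transgenic groups all 10 intervals include 0.

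The comparison of APP anti-miR-mix with APP control asked whether the inhibitors moved these genes in mice with amyloid. None of the 10 genes was called (all adjusted p = 1.00), and DESeq2 called 0.0% of all genes (0 of 19297), with 552 genes (2.86%) at an unadjusted p under 0.05. The edgeR quasi-likelihood test called 0 genes as well. The log2 fold changes ran from -0.10 for Hcst to 0.26 for Ms4a6d, and the ranges of both groups overlapped for every member. The intervals show which differences these libraries cannot exclude. For Trem2 the ratio of APP anti-miR-mix to APP control was 1.03 with a 95% interval of 0.686 to 1.55, and for Tyrobp 1.04 with 0.693 to 1.56. The narrowest intervals belonged to Syk (1.02, 0.869 to 1.20) and Inpp5d (1.04, 0.865 to 1.24). Plcg2 and Spi1 had ratios of 0.998 (0.801 to 1.24) and 0.996 (0.785 to 1.26). The lowest unadjusted p, 0.218, was that of Ms4a6d (1.20, 0.899 to 1.60).

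These differences moved when APP control 5 and 6 were left out, and those of Trem2, Tyrobp, Inpp5d, Abi3 and Syk changed sign. Without both, the log2 fold change of APP anti-miR-mix against APP control was -0.32 for Trem2, -0.30 for Tyrobp, -0.38 for Hcst and -0.21 for Spi1, with adjusted p between 0.792 and 0.814. For Inpp5d, Abi3 and Syk it was -0.12, -0.09 and -0.05. Ms4a6d then differed by 0.41 in the other direction (adjusted p = 0.791). The 10 members remained without a call.

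The comparison of APP anti-miR-mix with WT control shares its wild-type libraries with the first comparison and is therefore not independent of it. All 10 members were called higher, where 5.59% of all genes were, and the log2 fold changes lay between 0.47 (Syk, adjusted p = 0.00228) and 2.23 (Trem2, adjusted p = 4.90e-11). Tyrobp (2.03), Hcst (1.39), Abi3 (1.21), Inpp5d (1.02), Spi1 (1.00), Plcg2 (0.89) and Cd33 (0.79) lay between them. For 7 members, all but Cd33, Ms4a6d and Syk, the 7 libraries of APP anti-miR-mix lay above the 6 of WT control, which held for 2.52% of all genes. Ms4a6d passed the threshold here (log2 fold change 0.70, adjusted p = 0.0180) and not in the first comparison. The difference between its values in the 2 comparisons is the difference between the transgenic groups, which was not called. Its call was lost with edgeR (adjusted p = 0.0525), with the adjustment number as a factor (adjusted p = 0.0843), without WT control 5 and APP anti-miR-mix 6 together (adjusted p = 0.0594) and without WT control 3 or 6 (adjusted p = 0.0538 and 0.0720).

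Levels can be compared between genes only per length, here as TPM values (a count per transcript length, scaled to the same sum in every library) computed from the counts over the joined exons of each gene. In WT control Tyrobp stood far above the rest, at 145 ± 50.7 TPM (SD, n = 6), and its lowest library (91.9) exceeded the highest of Trem2 (28.1). Trem2 followed at 20.0 ± 5.97 TPM, and then Inpp5d at 11.7, Cd33 at 9.53, Spi1 at 7.77, Plcg2 at 6.77, Ms4a6d at 4.64, Syk at 4.01, Hcst at 2.28 and Abi3 at 1.69. From Trem2 downwards each gene overlapped the next in its range over libraries. Within libraries, Trem2 exceeded Inpp5d in 6 of 6, Plcg2 exceeded Ms4a6d in 6 of 6 and Syk exceeded Hcst in 6 of 6, while the other neighbours kept their order in 4 or 5 of 6. With the longest transcript as the length, Trem2 exceeded Inpp5d in 4 of 6, and Syk (5.46 TPM) stood above Plcg2 (5.28 TPM) and Ms4a6d (4.43 TPM). In APP control Tyrobp reached 569 ± 272 TPM and Trem2 90.8 ± 43.6 TPM (n = 6), and Trem2 (33.8 to 142) no longer overlapped Inpp5d (15.6 to 29.2). With the longest transcript as the length they did overlap (27.4 to 114 and 18.9 to 34.9). In APP anti-miR-mix the means were 592 ± 116 TPM for Tyrobp and 93.5 ± 21.4 TPM for Trem2 (n = 7). Shared positions make the level of Abi3 uncertain.

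The receptor and its adaptor varied together. Across the 13 transgenic libraries, normalized counts of Trem2 and Tyrobp on a log2 scale had a Pearson r of 0.997 and a Spearman rho of 0.995 (permutation p = 1e-05 each, the smallest that 100000 permutations can give). Without APP control 5 and 6, the libraries farthest from the median of Trem2, r was 0.991 and rho 0.991 over 11 libraries. Within APP control r was 0.999 (n = 6) and within APP anti-miR-mix 0.993 (n = 7). Only this relation was tested. The ratio of Trem2 to Tyrobp counts was 1.04 ± 0.0850 (SD, n = 6) in WT control, 1.18 ± 0.0406 (n = 6) in APP control and 1.17 ± 0.0457 (n = 7) in APP anti-miR-mix. The range in WT control, 0.896 to 1.15, overlapped those in APP control, 1.13 to 1.25, and APP anti-miR-mix, 1.11 to 1.24, and the difference in the ratio was not tested.

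**Figure D3:**
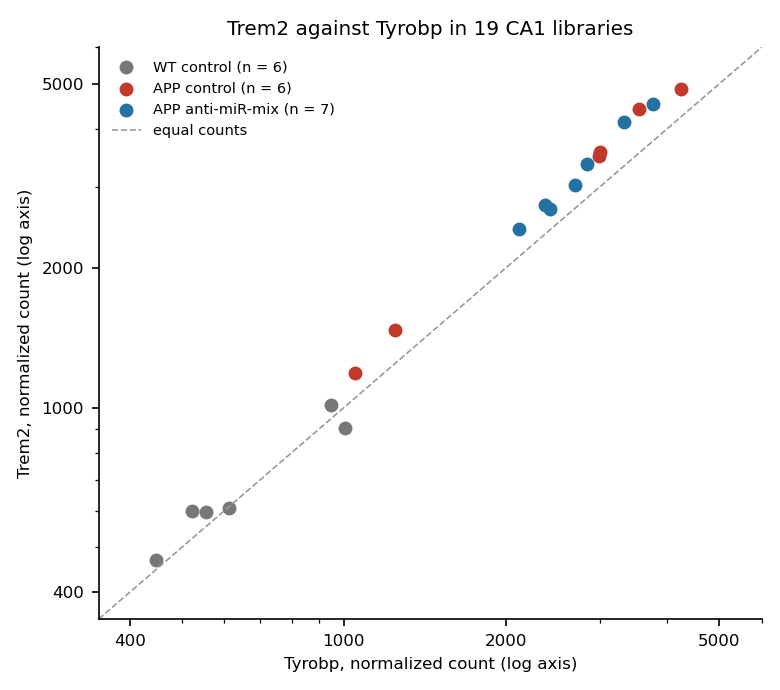
Normalized counts of Trem2 (vertical, log axis) against Tyrobp (horizontal, log axis) in 19 libraries, with 1 point per library and a dashed line where both counts are equal. The 13 transgenic libraries lie above the line, APP control 5 and 6 stand between the wild-type libraries and the others, and the 2 transgenic groups share 1 band.

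Over all 19 libraries, Tyrobp was the gene most like Trem2 of the 19297 tested (Pearson correlation 0.997 on the log2 scale), followed by Cd68, Vsir, Tbxas1 and Ctsd (0.994, 0.994, 0.991 and 0.991). For Tyrobp the closest were Trem2, Cd68, Ctsd, Csf1r and Laptm5 (0.997, 0.994, 0.993, 0.993 and 0.991). The 19 libraries fall into 2 genotypes, and genes of 1 cell type share its content in each library, so the correlations are given as a description. With Spearman correlation, 2 of the 5 closest genes were the same for either gene. The 5 closest then included Gfap, an astrocyte gene, for Trem2 (0.991) and for Tyrobp (0.984), so they were not all genes of microglia. Among the members, the correlation with Trem2 was 0.977 for Inpp5d, 0.967 for Abi3, 0.945 for Spi1, 0.937 for Plcg2, 0.895 for Hcst, 0.854 for Syk, 0.812 for Cd33 and 0.577 for Ms4a6d. Cd33 and Ms4a6d thus followed the receptor least closely.

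Libraries took similar places for most members. Within WT control, library 1 was the highest for 8 of the 10 members and library 6 the lowest for 9. Within the transgenic groups, APP control 5 or 6 was the lowest of the 13 for 7 members and APP control 2 the highest for 6. The summed homeostatic microglia genes followed this order in part, at 9366 and 13997 normalized counts in libraries 5 and 6 of APP control against 17929 to 22555 in the other 4 (highest in APP control 4), and at 10963 and 11871 in WT control 1 and 5 against 7530 to 9606 in the other 4 (lowest in WT control 3). Thy1, at 45170.5 and 36153 in APP control 5 and 6, stayed above all wild-type libraries.

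To set the members against microglial content, the counts were scaled a second time, by size factors taken from the 8 homeostatic microglia genes alone. Those genes were themselves higher in APP control on the first scale (6 of 8 called, median log2 fold change 0.86), and 10 broad myeloid genes such as Csf1r, C1qa and Ptprc more so (10 of 10, median 1.19). On the second scale the median of all genes moved by -0.74 in APP control and by -0.91 in APP anti-miR-mix against WT control, and 78.3% and 85.5% of genes were called lower, so a call of lower expression is near the background here. Trem2 was still higher in APP control, by 1.29 (95% interval 0.92 to 1.65, adjusted p = 1.77e-08), and Tyrobp by 1.09 (0.71 to 1.46, adjusted p = 6.47e-06), where 0.601% of all genes were called higher. In APP anti-miR-mix against WT control the values were 1.33 and 1.14 (adjusted p = 2.04e-10 and 6.26e-08), where 0.637% were. Trem2 and Tyrobp remained called when any library was left out (1.19 to 1.40 and 0.98 to 1.20 in APP control).

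Hcst passed on this scale in APP control (0.66, adjusted p = 0.0412) and not in APP anti-miR-mix (0.48, adjusted p = 0.123). Its call was lost when WT control 3, 5 or 6 or APP control 2, 4 or 5 was left out (as low as 0.54, with an adjusted p of up to 0.117) and with the broad myeloid genes as the base (0.30, adjusted p = 0.330). None of the other members was called higher. In APP control they were 0.21 for Spi1, 0.19 for Inpp5d, 0.17 for Abi3, 0.09 for Plcg2, -0.01 for Cd33, -0.22 for Ms4a6d and -0.30 for Syk. Without APP control 5, Syk and Ms4a6d were called lower there (-0.50 and -0.54). In APP anti-miR-mix Abi3 was at 0.31 (95% interval -0.04 to 0.67, adjusted p = 0.0942) and not called. Syk was called lower there (-0.42, adjusted p = 0.0254), as were 85.5% of all genes, and this call was lost without WT control 1 or 3 or APP anti-miR-mix 4 or 7. With the broad myeloid genes as the base, 2 members (Trem2 and Tyrobp) were called higher in either comparison, where 0.228% (APP control) and 0.264% (APP anti-miR-mix) of all genes were. On that base 2 and 4 members were called lower, where 91.4% and 93.2% of all genes were. Between the transgenic groups no member was called on this scale, and the values lay between -0.19 (Hcst) and 0.15 (Abi3).

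**Figure D4:**
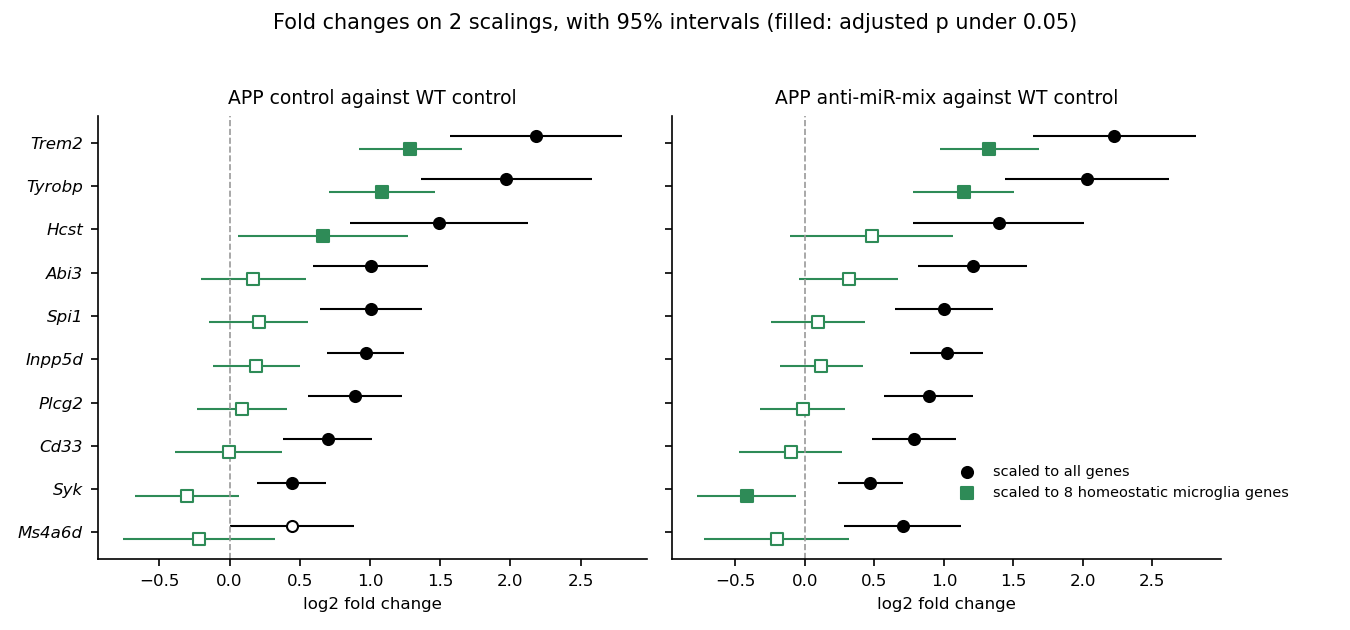
Log2 fold changes of the 10 genes (horizontal axes) against WT control, scaled to all genes (black circles) and to 8 homeostatic microglia genes (green squares), with 95% intervals and filled symbols where the adjusted p was under 0.05. Trem2 falls from 2.18 to 1.29 and Tyrobp from 1.97 to 1.09 in APP control and stay called, while Spi1, Inpp5d, Plcg2 and Cd33 move to between -0.01 and 0.21.

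Genes around the members were examined by role. Of 14 other receptors of the TREM family or of the DAP12 and DAP10 adaptors, 9 had enough counts. In APP control 5 of these 9 were higher and none lower (median log2 fold change 1.02), where 3.66% of all genes were called higher. Treml2, a TREM-like receptor, went from 46.4 ± 19.2 to 133 ± 35.2 normalized counts (SD, n = 6 each, adjusted p = 3.92e-07). Cd300c2, an activating receptor of the CD300 family, changed by 1.22 and Csf1r, the receptor for CSF1 and interleukin 34, by 0.92 (adjusted p = 6.06e-07 and 2.26e-07). Trem1, Treml1, Treml4, Sirpb1a and Pilrb1 were below the filter, and Trem3 received no adjusted p because its mean count was low.

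Of 27 kinases, scaffolds and effectors of the SYK cascade, 14 were higher in APP control, none was lower and 13 were not called (median 0.60, against 3.66% of all genes called higher). Pik3cg, a catalytic subunit of phosphatidylinositol 3-kinase, changed by 1.09, Nckap1l, a subunit of the actin-regulating WAVE complex in blood cells, by 1.00, and Card9, an adaptor downstream of SYK, by 0.75 (adjusted p = 1.72e-08, 2.04e-07 and 2.83e-07). Prkcb, a protein kinase C that neurons hold in large amounts, was the most abundant of the list and was not called (-0.20, adjusted p = 0.161). Zap70, the relative of Syk in T cells, was not called either (-0.10, adjusted p = 0.902). In APP anti-miR-mix against WT control 15 of the 27 were higher (5.59% of all genes were), and Prkcb was lower (-0.26, adjusted p = 0.0145).

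Of 15 inhibitory receptors and phosphatases with enough counts, 7 were higher in APP control and none lower (median 0.63, against 3.66% of all genes called higher). Laptm5, a lysosomal membrane protein of blood cells, went from 1379 ± 256 to 3569 ± 1305 normalized counts (SD, n = 6 each), a log2 fold change of 1.37 (adjusted p = 5.16e-09). Ptpn6, which encodes the phosphatase SHP-1 that opposes SYK, changed by 1.22 (adjusted p = 7.52e-07). Sirpa, the receptor for CD47 and the most abundant of the list, was not called (0.13, adjusted p = 0.247). Among ligands and sheddases of TREM2, Apoe alone was called, by 0.40 (adjusted p = 0.0491), and Clu, Apoa1, Adam10 and Adam17 were not.

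Of 10 microglial transcription factors with enough counts, 6 were higher in APP control and none lower (median 0.61, against 3.66% of all genes called higher). Irf8, a partner of PU.1, changed by 1.40 and Runx1 by 1.12 (adjusted p = 1.08e-07 and 4.49e-07). Mef2c, which neurons also express, was not called (0.13, adjusted p = 0.920). Of 18 other genes near Alzheimer risk loci 4 were called in APP control, all higher (median 0.09, against 3.66% of all genes called higher). They were Rin3 (1.07, adjusted p = 1.16e-08), Grn, which encodes progranulin (0.96, adjusted p = 1.06e-07), Ctsh, which encodes cathepsin H (0.94, adjusted p = 0.000344), and Rhoh (0.97, adjusted p = 0.00152), which is named here after its value was seen. Ptk2b, the most abundant, was not called (-0.05, adjusted p = 0.949). In APP anti-miR-mix against WT control 5 of the 18 were higher (5.59% of all genes were). Sorl1 was lower there (-0.38, adjusted p = 0.000167), as were 649 of 19297 genes, and is named after its value was seen. In APP control it was not called (-0.25, adjusted p = 0.0661). Of 6 other Ms4a genes with enough counts none was called (median -0.05), and Ms4a4a received no adjusted p. No gene of any of these lists was called between the transgenic groups. Several genes named in these lists share exonic positions with another gene, from 0.424% (Ms4a6b) to 53.1% (Ms4a6c), which makes their counts uncertain in the same way.

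**Figure D5:**
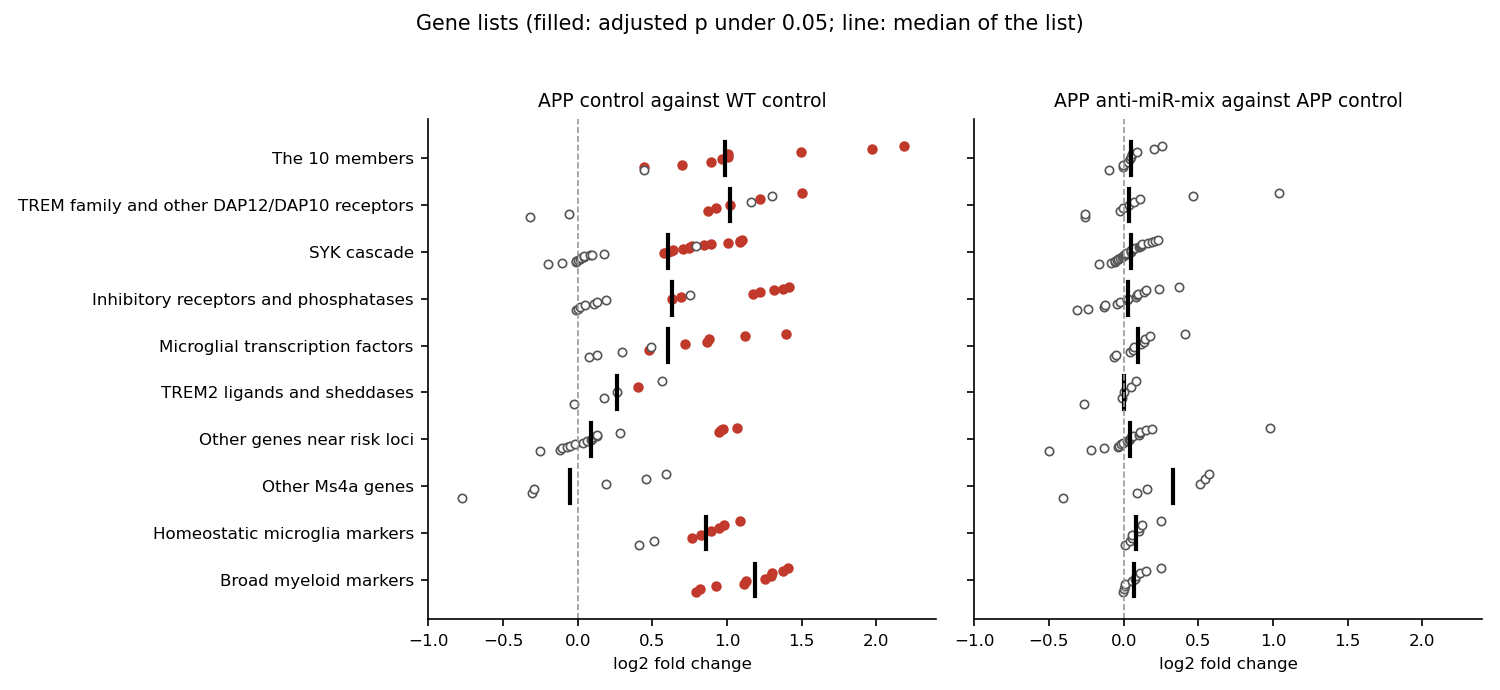
Log2 fold changes (horizontal axes) of the members, of 7 lists of related genes and of 2 lists of marker genes, with 1 point per gene, filled where the adjusted p was under 0.05, and a line at the median of each list. In APP control against WT control the medians run from -0.05 (other Ms4a genes) to 1.19 (broad myeloid markers), and between the transgenic groups no point is filled.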

How the data were processed

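RNA of CA1 tissue was sequenced as single reads of 50 nt. The authors' submission notes name FastQC 0.11.5, STAR 2.5.2b, featureCounts of Subread 1.5.1 and the mm10 genome. The annotation release, the use of strand and the handling of reads in shared exons were not given in the sources used here. The deposited files hold raw read counts per gene for each library, and 1 deposited table holds log2 normalized values of 18825 genes, which differ between the libraries' 5 adjustment numbers along 1 profile and were used only for an alternative. Identifiers were matched to GENCODE M21 (GRCm38) for 48349 of 48709 genes.

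Counts were tested with DESeq2 1.42.0 in R 4.3.3, as 1 fit over the 3 groups, for the 19297 genes that reached 5 counts or more in 50% or more of the libraries. Wald p-values were adjusted by the Benjamini-Hochberg method, with a threshold of 0.05. Genes that DESeq2 left out of the adjustment, such as those of low mean count, received no adjusted p and counted as not called. Totals were 19362343 to 37018917 counts per library, and Hcst, Abi3 and Ms4a6d had the fewest counts among the members. A second fit took its size factors from 8 homeostatic microglia genes. TPM were computed from counts and union-exon lengths, and correlations on log2(normalized count + 1). Alternatives used edgeR 4.0.16, limma 3.58.1, other filters and factors, and fits without single libraries. The pipeline was tested on simulated data.

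The members and the gene lists were chosen with earlier results of these data known. From each list the text names the 3 called genes with the smallest adjusted p in APP control against WT control and the most abundant gene, with paralogs of members, genes sharing exonic positions with a member, and the 5 genes most correlated with Trem2 and with Tyrobp. Values of some single genes under this rule are not reported here.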

Additional observations from a re-analysis of the deposited data

How the results depend on the processing

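Each comparison was repeated with edgeR, TMM factors, no filter, a stricter filter, 2-group fits, the adjustment number as a factor, the deposited normalized table with limma, and without 1 library or 3 pairs of libraries. Trem2, Tyrobp, Plcg2, Inpp5d, Cd33, Abi3, Spi1 and Hcst stayed called against WT control in both transgenic groups under each of these, and no member was called between the transgenic groups. In the deposited normalized table the log2 fold change of Hcst fell to 0.59 from 1.49 in APP control and to 0.55 from 1.39 in APP anti-miR-mix. The calls of Syk in APP control and of Ms4a6d in APP anti-miR-mix were lost under the settings named with them, and the cause was not tested. Without 1 library, the log2 fold change of Trem2 in APP control lay between 2.02 and 2.35 and that of Tyrobp between 1.79 and 2.14.

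Replicate numbers are shared between groups, but the labels do not say that a number marks a shared animal or litter, and 10 of 18 correlations between same-numbered deviations exceeded 0.1 (from -0.12 to 0.35). With the replicate number as a block, and APP anti-miR-mix 7 left out, 9 members were called between APP control and WT control. The number was 10 for APP anti-miR-mix against WT control and 0 between the transgenic groups, so the block changed no call of a member. The share of all genes called between APP control and WT control was larger with the block than in the main fit.

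With size factors from 10 broad myeloid genes in place of 8 homeostatic genes, 6 members were called in APP anti-miR-mix against WT control, 2 higher (Trem2 and Tyrobp) and 4 lower (Cd33, Plcg2, Ms4a6d and Syk), where 0.264% of all genes were called higher and 93.2% lower. In APP control 4 were called, 2 higher (Trem2 and Tyrobp) and 2 lower (Ms4a6d and Syk), where 0.228% and 91.4% of all genes were. The low counts of Hcst, 6 to 49 reads per library, limit what can be said of it.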

Other observations

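Gngt2, a gamma subunit of heterotrimeric G proteins that shares 5.63% of the exonic positions of Abi3, averaged 67.9 ± 17.0 normalized counts over the WT control libraries (SD, n = 6). The transgenic averages were 163 ± 54.9 for APP control (n = 6) and 156 ± 21.7 for APP anti-miR-mix (n = 7). Against WT control the latter was higher by 1.19 in log2 units (DESeq2, adjusted p = 4.81e-07).

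Among 7 markers of perivascular macrophages and monocytes, 2 were called higher in APP control (3.66% of all genes were), Cd163 (log2 fold change 1.23, adjusted p = 0.0182) and Pf4 (1.55, adjusted p = 0.0399), and Ccr2, a receptor of blood monocytes, was not (0.06, adjusted p = 0.982). The 7 genes summed to 482 normalized counts in APP control 5, the highest of all libraries, to 438 and 326 in APP control 3 and 6, and to 159 to 189 in the other 3, against 128 to 249 in WT control. In APP anti-miR-mix against WT control 4 of the 7 were called higher (Mrc1, Cd163, Pf4 and F13a1), where 5.59% of all genes were. These genes were named after their values were seen.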
